A study of Rattus norvegicus with 3 samples.

Results

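Ubiquitin conjugating enzymes (E2s) and deubiquitinases (DUBs) are described here in 3 single somata of cultured rat hippocampal neurons. Members were the probe sets that carry exactly 1 gene symbol in the platform annotation of the array and whose symbol begins with Ube2, Usp and a digit, Uchl and a digit, Otub or Otud. These were 150 of the 20832 probe sets with 1 symbol, out of 31099 on the array. They covered 83 of 14218 genes, namely 29 Ube2 genes and 54 genes named as DUBs (43 Usp, 3 Uchl and 8 Otub or Otud genes). The rule itself uses names alone. Genes of these names that had no probe set with 1 symbol, such as Ube2d3 and Otub1, were not analysed here.

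Each of the 3 arrays carried the amplified RNA of 1 soma (the cell body), taken by pipette dissection of 1 neuron out of a dispersed primary culture. The paper calls the neurons it collected pyramidal, whereas the labels of these arrays name only a neuron. All cultures came from the hippocampus of Sprague-Dawley rats at embryonic day 19, were 14 days old and had received no treatment. The arrays form 1 group with replicates 1 to 3, called cell 1, cell 2 and cell 3. With 1 group there is no second group to test against, and no p-value is given. The labels name neither the animal nor the dish of a cell, so whether the 3 cells are independent is not known. An exact two-sided sign-flip test over 3 cells could not go below p = 0.25.

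Ubiquitin is a small protein that cells attach to other proteins, most often to send them to the proteasome, and also to steer trafficking, repair and signalling. An E1 enzyme activates it, an E2 carries it on a cysteine, and an E3 ligase directs the E2 to a substrate. DUBs cut ubiquitin off again, trim chains and refill the pool of free ubiquitin. In neurons this cycle is known for its part in the turnover of synaptic proteins. Not every member is an active enzyme of its class: Ube2v2 lacks the catalytic cysteine, Usp39 is a splicing protein without protease activity and Usp6nl acts on RAB GTPases.

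Levels are given as the deposited log2 value and as the percentile of the gene among all 14218 genes of the same array. A percentile depends on how well the probes bind as well as on the amount of RNA, and it therefore gives the place of a probe set, not an order of transcript amounts. Background was taken from 126 genes that neurons should not use (silent genes), chemosensory receptor genes and genes of other organs, and a gene passed it with a log2 value over their 95th percentile. Background lay at 9.72, 9.96 and 9.47 log2 in cells 1, 2 and 3, and 7 of the 126 genes passed it in each cell by construction. Cell 1 stood apart from the other arrays. The log2 difference between the 3′ and 5′ control probe sets of Gapdh was 0.20 in cell 1, 3.06 in cell 2 and 2.93 in cell 3. Of 10 microglial markers, 4 read above background in cell 1, 0 in cell 2 and 0 in cell 3, with a summed linear level of 10103, 1440 and 1495. Tyrobp, Csf1r, Itgam and C1qc were the 4 markers. Cd68 and Ptprc were also highest in cell 1, without passing background. Aif1, Cx3cr1 and C1qb were lowest in cell 1, at percentiles 1.65, 17.2 and 51.6 there, and C1qa was highest in cell 2. Other glial lists also had their highest median in cell 1, at 78.1 for 9 oligodendrocyte and 53.6 for 8 astrocyte markers. Background was passed by 1, 2 and 0 oligodendrocyte and 1, 0 and 0 astrocyte markers in cells 1, 2 and 3. Of 12 neuronal markers, 3, 4 and 8 read above background in cells 1, 2 and 3, and their median percentile was 85.7, 84.8 and 95.3. The 9 pyramidal markers were mixed, with median percentiles of 57.7, 53.7 and 85.3. Neurod2 stood at 99.9 in each cell and Nrgn at 94.8, 99.4 and 98.8, whereas Camk2a stood at 26.5, 19.6 and 26.2 and Tbr1 at 2.12, 14.6 and 23.9.

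E2s and DUBs stood at nearly the same place in the 3 somata, close to the middle of the array. The median percentile of the 29 E2s was 54.3 in cell 1, 52.6 in cell 2 and 52.6 in cell 3, and that of the 54 DUBs was 57.8, 50.6 and 53.7. Averaged over the cells this came to 53.2 ± 0.961 for E2s and 54.0 ± 3.64 for DUBs (SD, n = 3 cells). The difference between E2s and DUBs was -3.55, 2.04 and -1.11 percentile points in cells 1, 2 and 3, with a mean of -0.872 ± 2.80 (SD, n = 3 cells). It had no constant sign, and its mean was smaller than its spread between cells. Without cell 1 its mean was 0.466. Both classes spread widely in every cell: 50% of the E2s lay between percentiles 29.4 and 75.3 in cell 1, 23.8 and 71.9 in cell 2 and 35.4 and 73.3 in cell 3, against 32.2 and 78.0, 26.9 and 74.0, and 29.7 and 76.7 for DUBs. For scale, the 83 members together had a mean of the medians of 53.7 ± 2.32, against 70.0 ± 7.98 for 37 proteasome subunits and 34.6 ± 5.40 for the silent genes.

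**Figure D1:**
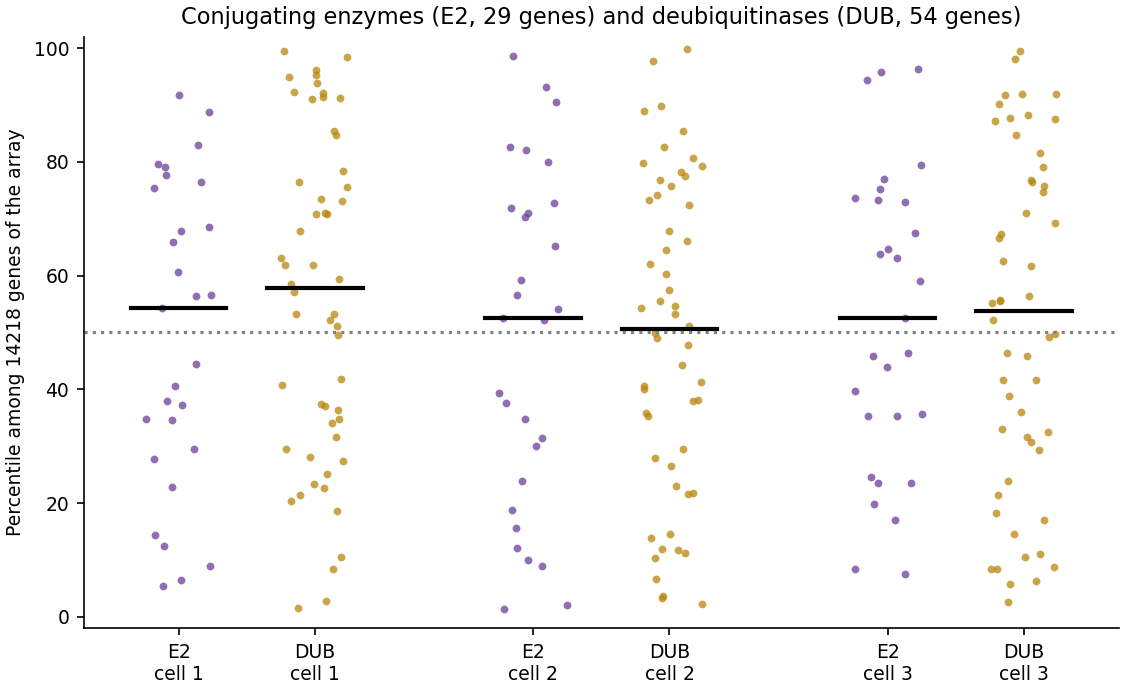
Percentile of every member among 14218 genes of the array (y axis) in cells 1, 2 and 3, with 29 conjugating enzymes (E2, purple) left of 54 deubiquitinases (DUB, ochre). Points are genes, black bars are class medians and the dotted line marks percentile 50; the medians of both classes lie between 50.6 and 57.8 and the points cover nearly the whole range.

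Few members read above background. The E2s above it were 0 of 29 in cell 1, 1 in cell 2 and 3 in cell 3, and the DUBs 6 of 54, 2 and 6. Together these were 6, 3 and 9 members, or 7.23%, 3.61% and 10.8% of the 83, against 7.07%, 6.1% and 10.5% of all genes, so the shares of members lay close to those of all genes or below them. In all 3 cells, 0 E2s and 2 DUBs passed, and 2.07% of all genes and 2 of the 126 silent genes did. In at least 1 cell, 3 E2s and 9 DUBs passed, with 16.1% for all genes and 14 of the 126 silent genes. The other 26 E2s and 45 DUBs passed in no cell, as did 83.9% of all genes. A reading below background here does not show that a transcript was absent from the cell.

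Usp14 and Usp31, both DUBs, were the members above background in every soma. Usp14, a DUB that docks on the proteasome and trims chains from its substrates, read 11.11, 10.93 and 12.23 log2 in cells 1, 2 and 3. It stood at percentiles 98.4, 97.8 and 99.6, so every cell had it near the top of the array. Usp31, a large member of the USP family, read 10.36, 12.63 and 11.24 log2, at percentiles 96.1, 99.8 and 98.1. Its highest reading was in cell 2, where Usp14 had its lowest. These were the 2 DUBs in the top 5% of the array in all 3 cells, against 0 E2s and 1.39% of all genes, and each rests on 1 probe set. With the 99th percentile of the silent genes as background, 0 DUBs passed in all 3 cells. With the brightest probe set of every gene, Usp31 stood at 93.0, 99.5 and 96.0 and left the top 5% in cell 1, whereas Usp14 stayed in it.

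Since both read high in every soma, the 150 bases just upstream of their annotated starts are shown, with motif matches in capitals (GGGCGG for a GC box, the CCAAT box, CACGTG for an E-box or the TATA box TATAAA, on either strand). They come from RefSeq on build GRCr8, which was not matched to the probes. Usp14 lies at chr18:1330337-1330486 and Usp31 at chr1:185709465-185709614, both on the minus strand.
Usp14: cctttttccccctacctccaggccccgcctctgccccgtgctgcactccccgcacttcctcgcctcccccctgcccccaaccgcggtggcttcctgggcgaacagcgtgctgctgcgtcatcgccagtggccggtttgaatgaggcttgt
Usp31: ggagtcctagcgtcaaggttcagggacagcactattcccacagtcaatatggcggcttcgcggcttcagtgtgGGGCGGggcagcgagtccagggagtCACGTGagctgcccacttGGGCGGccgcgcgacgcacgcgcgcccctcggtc
The Usp14 stretch held none of these 4 motifs, whereas that of Usp31 held GC boxes on the given strand and an E-box. In the full 250 bases before the start, a GC box was found in 16 of 25 E2 promoters (64%) and 31 of 42 DUB promoters (73.8%), against 54.2% of the 11701 promoters of genes on the array and 32.4% of 27457 promoters in all. CCAAT was found in 36% of the E2 and 21.4% of the DUB promoters, against 35.1% for genes on the array, CACGTG in 4% and 9.52%, against 7.85%, and TATAAA in 8% and 7.14%, against 8.07%. Median GC content was 64.4% for E2 and 64.8% for DUB promoters, against 59.2% for genes on the array. Promoters were found for 25 of the 29 E2s and 42 of the 54 DUBs.

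Among E2s, 2 stood above the 75th percentile in all 3 cells, Ube2ql1 and Ube2j2. Ube2ql1, a relative of the Ube2q enzymes, read 9.53, 11.24 and 10.61 log2 (percentiles 91.7, 98.6 and 95.8) and was above background in cells 2 and 3. Its 2 probe sets had median percentiles of 95.5 and 95.7, the closest pair among the members. Ube2j2, a membrane-anchored E2 of the endoplasmic reticulum that serves protein quality control, read 9.16, 9.46 and 10.72 log2 (88.7, 90.5 and 96.3) and passed background in cell 3. The remaining E2 that passed was Ube2v2, which pairs with Ube2n to build chains through lysine 63, at 8.25, 7.32 and 10.30 log2 (75.3, 52.6 and 94.4), with cell 3 well above the others. The stretch before the start of Ube2ql1 (chr1:35377114-35377263, plus strand, same source and marking) is given as that of the E2 above background in the most cells.
Ube2ql1: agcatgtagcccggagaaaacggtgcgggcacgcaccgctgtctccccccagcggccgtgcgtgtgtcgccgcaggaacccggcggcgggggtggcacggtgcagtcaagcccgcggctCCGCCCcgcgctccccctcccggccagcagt
It held 1 match, a GC box on the opposite strand.

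By role, the list of E2s of broad use (Ube2d, Ube2e, Ube2h, Ube2k and Ube2l3 genes) stood lowest as a group in cells 1 and 2. It also held Ube2z, whose broad use was not checked. Its 8 measured genes had median percentiles of 37.5, 26.8 and 52.7. By the mean over the cells, which orders the lists from here on, Ube2k came first at 68.6, 65.1 and 79.5 and Ube2h last. Ube2e3 stood at 37.2, 71.9 and 75.2. Ube2h read 5.83, 4.50 and 5.23 log2 (14.3, 1.36 and 8.40), Ube2d1 read 5.25, 5.80 and 6.10 log2 (6.42, 15.7 and 23.5), and Ube2d2b, which is outside that list, read 5.16, 5.60 and 5.16 log2 (5.38, 12.2 and 7.48). These 3 were the E2s below the 25th percentile in every cell (10.3% of 29), against 2 of 54 DUBs (3.70%) and 7.65% of all genes. Ube2d2 stood at 8.84, 18.8 and 46.3, so the 3 measured Ube2d genes all lay below percentile 50 in each cell. Probe sets of Ube2h, Ube2d1 and Ube2d2 did not agree, as given below for the first 2. With the brightest probe set per gene, their mean percentiles were 59.6, 36.1 and 50.3, against 8.03, 15.2 and 24.7 as reported. Ube2d2b, with 1 probe set, stayed low at 7.90. The low places of Ube2h, Ube2d1 and Ube2d2 thus depend on the median over probe sets, and the group medians were not taken otherwise. Ube2d genes are also close paralogs whose probes may share targets.

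The lysine 63 pair differed within itself. Ube2n, the catalytic partner, read 6.27, 7.30 and 7.90 log2 (22.9, 52.1 and 67.5), lowest in cell 1, whereas Ube2v2 was lowest in cell 2. Of the cell cycle E2s, Ube2c, which works with the anaphase-promoting complex in mitosis, read 6.75, 9.81 and 7.73 log2 (34.6, 93.1 and 63.7), Ube2s stood at 77.7, 82.6 and 52.6 and Ube2t, an E2 of DNA repair, at 56.6, 30.0 and 17.0. Cell 2 had the high reading of Ube2c, which passed background in no cell. The 11 markers of dividing cells had median percentiles of 17.8, 22.2 and 16.1, and 0 of them passed background in any cell. The repair E2s Ube2a and Ube2b stood at 67.8, 56.7 and 44.0 and at 54.3, 54.1 and 19.9.

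E2s of the endoplasmic reticulum other than Ube2j2 read lower: Ube2g2 stood at 34.7, 82.0 and 64.7, Ube2g1 at 44.5, 31.5 and 35.7, and Ube2j1 at 12.5, 72.8 and 24.6. Of the E2s for ubiquitin-like proteins, Ube2f, which carries Nedd8, was the steadiest at 65.9, 70.3 and 73.3, and the other Nedd8 carrier Ube2m stood at 27.8, 80.0 and 35.4. Ube2l6, the E2 for the interferon-induced modifier Isg15, read 8.45, 5.36 and 8.17 log2 (79.1, 8.95 and 72.9), with cell 2 far below the others. Among the large or less common E2s, Ube2ql1 had the highest mean and Ube2u the lowest, at 29.4, 2.02 and 35.4. In this last group Ube2o stood at 82.9, 37.6 and 45.8.

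**Figure D2:**
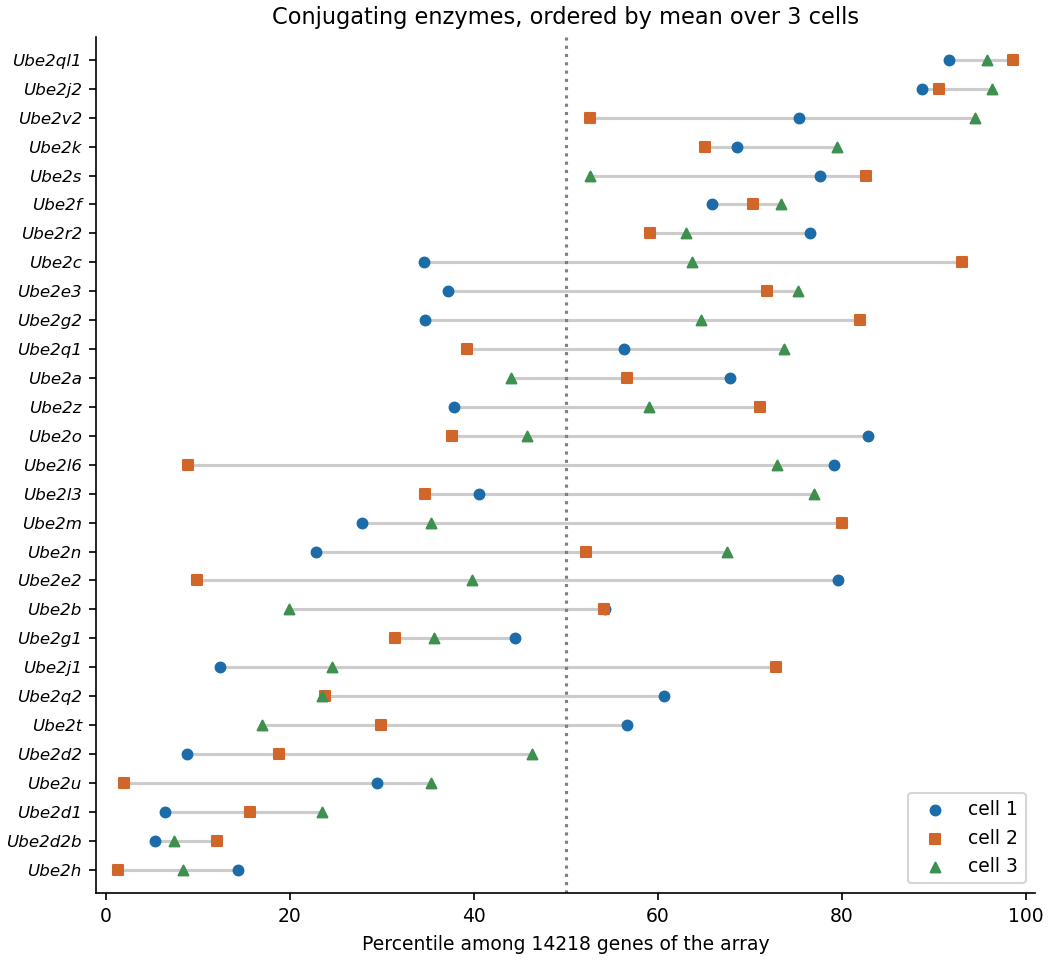
Percentile among 14218 genes (x axis) of each of the 29 conjugating enzymes in cell 1 (blue circle), cell 2 (orange square) and cell 3 (green triangle), ordered by the mean over the cells. Ube2ql1 and Ube2j2 lie above percentile 88 in every cell, Ube2h, Ube2d2b and Ube2d1 lie below percentile 25, and Ube2l6 and Ube2e2 span the widest ranges.

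Among DUBs, 7 of 54 (13.0%) stood above the 75th percentile in all 3 cells, against 2 of 29 E2s (6.90%) and 8.64% of all genes. Besides Usp14 and Usp31 these were Otud4, Usp21, Usp5, Otud6b and Usp49. Otud4 read 10.12, 8.93 and 9.82 log2 (94.9, 85.3 and 92.0) and passed background in cells 1 and 3. Usp21, which acts on histone H2A, read 9.58, 9.28 and 9.56 log2 (92.0, 89.0 and 90.3), and Usp5, which takes apart unanchored chains, read 8.87, 9.36 and 9.78 log2 (85.5, 89.8 and 91.8). Both passed background in cell 3 alone, and neither varied by more than 1 log2 between cells. Otud6b stood at 91.4, 82.5 and 88.2 without passing background, and Usp49, a DUB of histone H2B with 5 probe sets, at 78.5, 78.3 and 84.7. Usp40, with 4 probe sets, stood at 91.1, 80.6 and 49.3 and so left this group in cell 3.

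The proteasome-bound pair parted in cell 3. Uchl5, which like Usp14 binds the proteasome, read 9.62, 7.85 and 5.05 log2 (92.4, 66.1 and 6.25), high in cell 1 and low in cell 3, where Usp14 had its highest value. Among DUBs that free ubiquitin from precursors and chains, Uchl3 followed the same order at 9.45, 7.39 and 5.38 log2 (91.2, 54.3 and 10.5). Uchl5 and Uchl3 passed background in no cell. Usp13, a relative of Usp5, stood at 73.5, 55.6 and 74.7. Uchl1, known as an abundant protein of neurons, read 5.60, 5.57 and 6.14 log2 (10.6, 11.7 and 23.9). It was below the 25th percentile in every cell, and it has 1 probe set. Whether it reflects the amount of Uchl1 RNA was not tested.

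Because this reading stands against what is known of Uchl1 in neurons, the 150 bases before its start are shown (chr14:41849418-41849567, minus strand, same source and marking).
Uchl1: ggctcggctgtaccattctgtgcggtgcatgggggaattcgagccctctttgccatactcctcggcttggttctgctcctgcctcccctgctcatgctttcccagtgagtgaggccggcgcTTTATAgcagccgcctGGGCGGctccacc
They held a TATAAA match on the opposite strand and a GC box.

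Nuclear and histone DUBs, 8 genes, had median percentiles of 57.6, 45.7 and 52.2. Usp21 had the highest mean over the cells and Usp27x the lowest, at 2.76, 29.5 and 5.80. Usp7, which acts on Mdm2 and p53, stood at 49.6, 21.5 and 62.6, and Usp36, a nucleolar DUB, at 70.8, 27.9 and 91.9, above background in cell 3. Usp1, which acts on Fancd2 and PCNA, read 7.30, 4.67 and 4.61 log2 (51.2, 2.23 and 2.55). The value in cell 1 is the middle of 2 probe sets that stood at 90.2 and 5.72 there, and both stood below 7 in the other cells.

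DUBs of endosomes, membranes and mitochondria, 6 genes, had median percentiles of 59.0, 56.8 and 73.7. Usp20 stood at 59.4, 60.3 and 87.7, and its close relative Usp33 at 18.6, 79.3 and 76.4, low in cell 1. Usp8, which sorts receptors at endosomes, read 10.22, 7.20 and 7.03 log2 (95.3, 49.0 and 45.8) and passed background in cell 1. Usp30 of the mitochondrial outer membrane stood at 58.5, 53.3 and 71.0 and Usp32, lowest by the mean alone, at 84.8, 23.1 and 56.5.

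The DUBs studied at synapses or in neuron growth had medians below the middle of the array, at percentiles 36.8, 36.9 and 38.8 over 6 genes. Usp14 and Usp33 belong to them as well. Usp46, which acts on AMPA receptors in rodent neurons, stood at 53.2, 35.8 and 36.0, and Usp9x, a large DUB known from X-linked developmental disorders in humans, read 6.15, 6.80 and 6.87 log2 (20.4, 38.0 and 41.6). The 4 probe sets of Usp9x lay between median percentiles 6.74 and 67.9, and the 3 of Usp46 between 6.59 and 84.5. Usp12, a relative of Usp46, stood at 75.6, 10.3 and 17.0, with cell 1 apart. The 8 OTU genes had medians of 48.6, 61.0 and 68.0, a mean of 59.2 ± 9.78 (SD, n = 3 cells). Otud4 had the highest mean of them and Otud7a the lowest, at 5.43, 5.17 and 5.42 log2 (8.49, 6.64 and 11.1). Otud7a and Uchl1 were the 2 DUBs below the 25th percentile in every cell. Usp28 stood at 1.59, 26.6 and 8.40, and Usp38 at 73.2, 11.2 and 8.69.

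**Figure D3:**
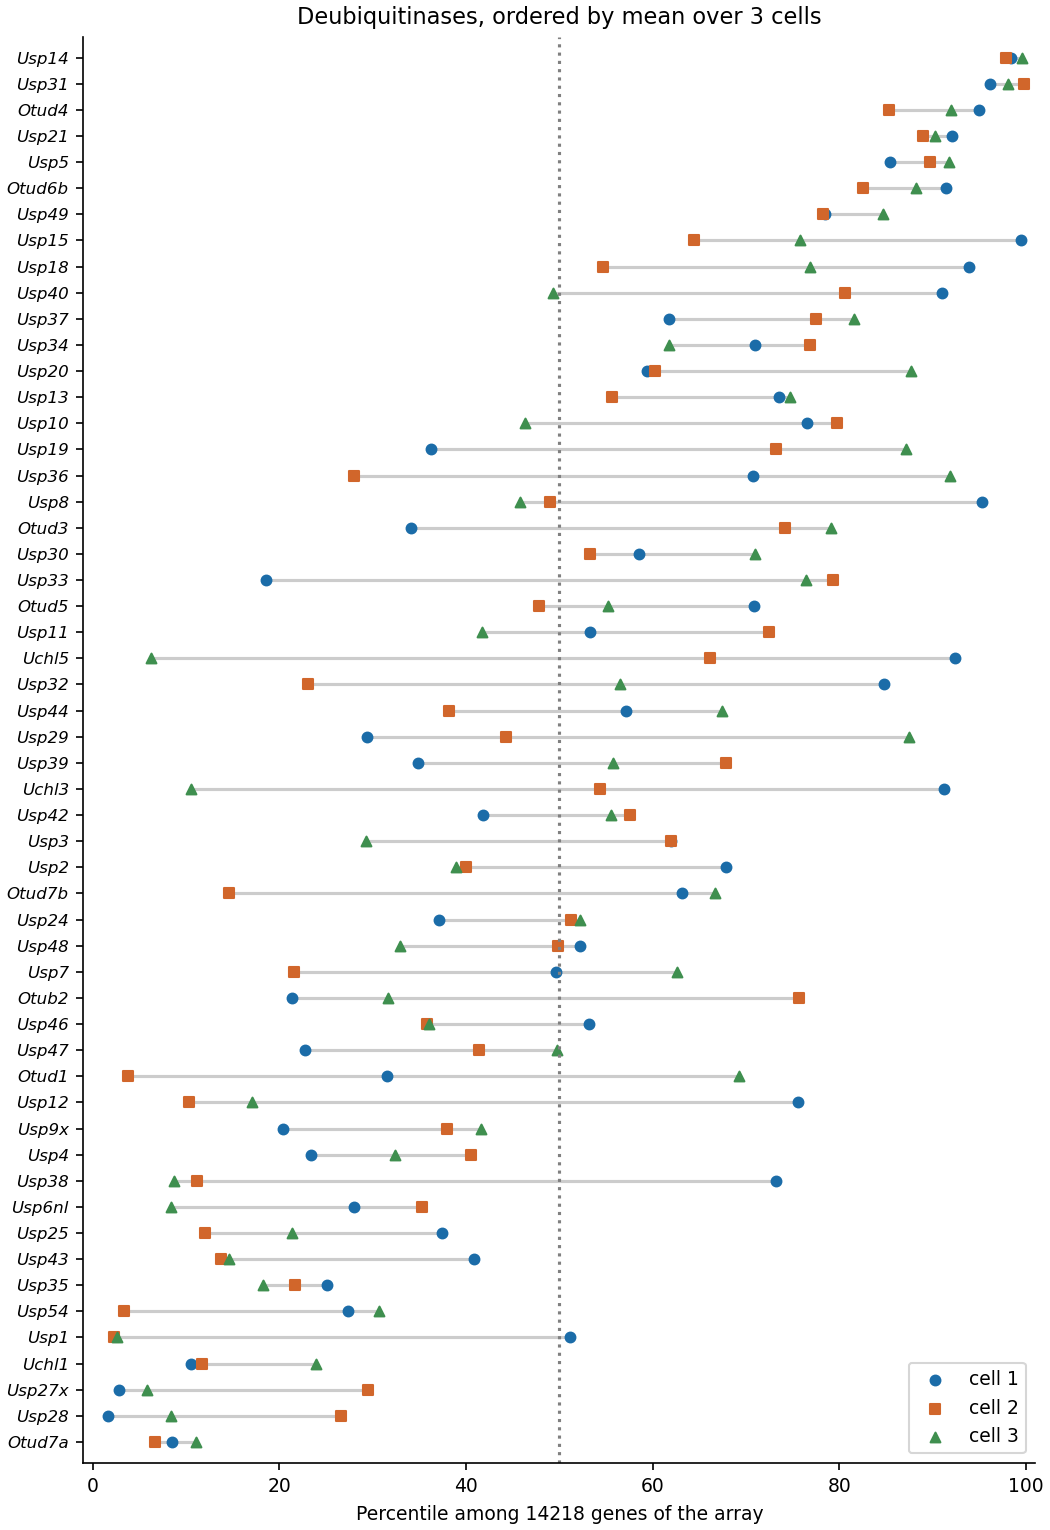
Percentile among 14218 genes (x axis) of each of the 54 deubiquitinases in cell 1 (blue circle), cell 2 (orange square) and cell 3 (green triangle), ordered by the mean over the cells. Usp14 and Usp31 lie above percentile 96 in every cell, whereas Uchl5, Uchl3, Usp38 and Usp12 lie far higher in cell 1 than in cell 3.

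The spread between single somata was of similar size in these genes and in all genes. On quantile-normalised log2 values the median SD over the 3 cells was 0.81 for E2s and 0.69 for DUBs, against 0.77 for all genes. An SD above 1.5 log2 was found for 3 of 29 E2s (10.3%) and 8 of 54 DUBs (14.8%), against 13.7% of all genes. The 3 E2s were Ube2l6 (SD 1.71), Ube2c (1.62) and Ube2e2 (1.54), the last at 79.6, 9.95 and 39.8. The DUBs were Uchl5 (2.31), Usp15 (2.25), Uchl3 (2.04), Usp8 (1.83), Usp36 (1.63), Usp38 (1.58), Otud1 (1.56) and Usp12 (1.52). All 3 of these E2s and 6 of these 8 DUBs rest on 1 probe set, as do 41 of the 83 members. Those 3 E2s and the DUBs Uchl5, Uchl3, Usp38, Otud1 and Usp12 passed background in no cell. Usp15, which acts on receptors and SMADs of the TGF-β pathway, read 11.79, 7.78 and 8.33 log2 (99.5, 64.5 and 75.8). Its value in cell 1 was the highest there of the 83 genes, although single probe sets of Usp6nl (12.31) and Usp40 (12.18) read higher. Cell 1 held the highest value of 2 of the 3 E2s and 6 of the 8 DUBs, and of 53.8% of the 1953 genes of the array with such an SD. Cell 1 is also the array with the glial marker readings and the small Gapdh difference given above, and their part in these readings was not tested. Over all members, the highest reading lay in cell 1 for 10 of 29 E2s (34.5%) and 20 of 54 DUBs (37.0%), against 32.5% of all genes, and the lowest for 13 E2s (44.8%) and 18 DUBs (33.3%), against 41.6%.

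The 2 members of the Isg15 cycle, each with 1 probe set, were highest in cell 1 and lowest in cell 2. Uba7, the E1 of that cycle and not a member, was highest in cell 3, at 53.2, 41.2 and 70.3 over 3 probe sets. Ube2l6, which attaches Isg15, stood at 79.1, 8.95 and 72.9, and Usp18, which removes it, read 9.89, 7.40 and 8.39 log2 (93.9, 54.7 and 76.8) and passed background in cell 1. Isg15 itself stood at 58.0, 57.1 and 83.4. Of 13 measured interferon response genes, 1, 1 and 2 passed background, and Rsad2 did so in all 3 cells. Their median percentile was 49.5, 56.2 and 26.2, with cell 3 lowest.

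Across the 83 members, quantile-normalised values correlated between cells with Pearson's r of 0.490 for cells 1 and 2, 0.523 for cells 1 and 3 and 0.666 for cells 2 and 3 (Spearman's rho 0.400, 0.452 and 0.582). For all genes r was 0.473, 0.438 and 0.676, and for the 126 silent genes 0.445, 0.381 and 0.633. Within the classes r was 0.398, 0.625 and 0.605 for the 29 E2s and 0.541, 0.496 and 0.698 for the 54 DUBs. These are correlations across genes, which are not independent replicates and share the affinity of their probes between arrays. The median absolute difference between cells was 0.96, 0.84 and 0.71 log2 for the members, against 0.92, 0.99 and 0.73 for all genes.

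**Figure D4:**
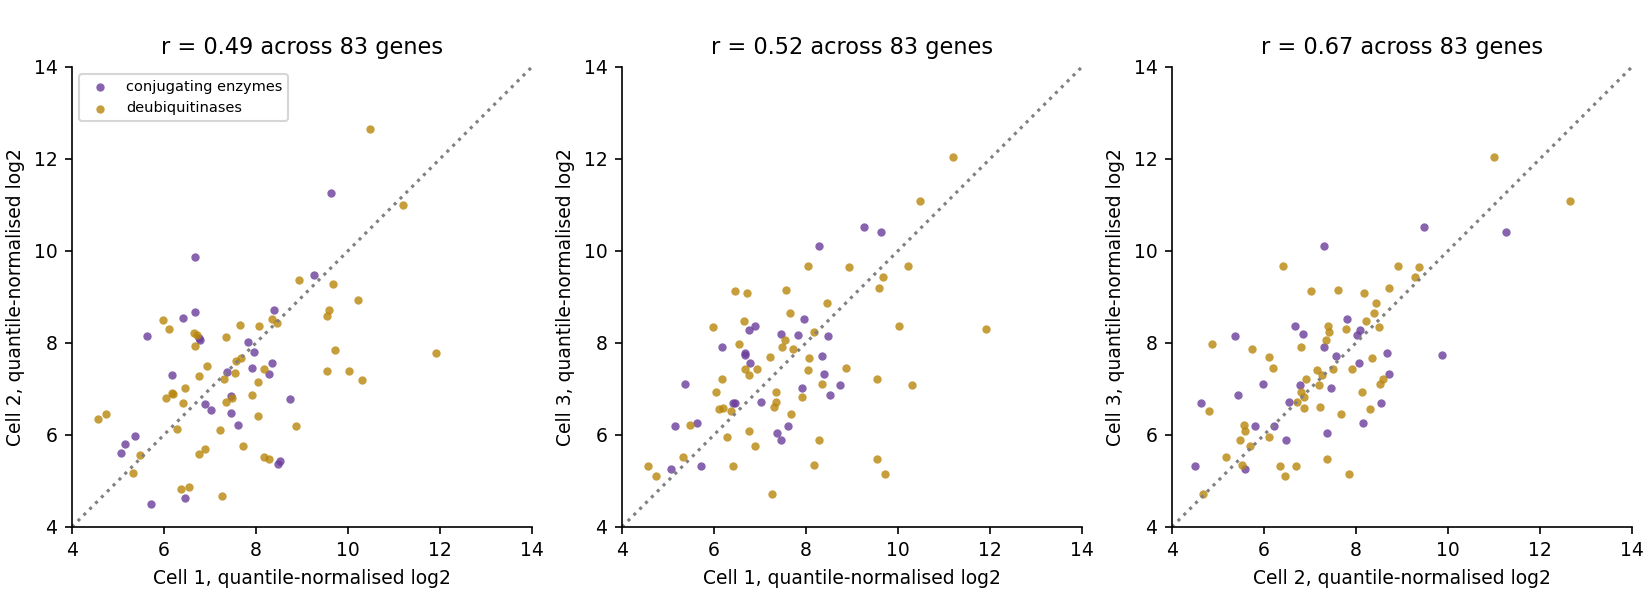
Quantile-normalised log2 values of the 83 members in cell 1 against cell 2, cell 1 against cell 3 and cell 2 against cell 3, with conjugating enzymes in purple, deubiquitinases in ochre and the line of equal values dotted. Cells 2 and 3 lie closest to the line (r = 0.67), and Usp14 and Usp31 are among the points at the upper right of each panel.

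Probe sets of the same gene often stood at different places on the array. Of the 83 members, 42 had several probe sets, and the median gap between the median percentiles of the highest and lowest probe set of a gene was 39.5 points, against 33.4 for all 4526 such genes. It exceeded 50 points for 13 of the 42 members and for 28.7% of all such genes. The widest gaps were those of Usp13, whose probe sets lay between percentiles 3.50 and 97.4, Usp46 (6.59 to 84.5), Ube2b (4.69 to 79.1), Usp6nl (23.6 to 97.8), Otud7b (19.7 to 90.9) and Usp7 (14.7 to 81.4). Ube2h had 1 probe set at 66.2 and 2 below 3, and the probe sets of Ube2d1 lay at 1.41 and 51.0. With 1 pair per gene, the probe sets of 1 gene correlated with r of -0.105, 0.132 and 0.0698 in cells 1, 2 and 3 over 42 members, and 0.0119, 0.0457 and 0.0748 over all such genes. Within an array, the place of 1 probe set thus told little about that of another probe set of its gene, in members and in all genes alike. This limits every percentile given here for a gene, a role or a class. Its cause was not tested, and the row labels of the deposited values were not checked. A gene whose probe sets disagree is placed between them by their median, and 41 members rest on a single probe set.

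**Figure D5:**
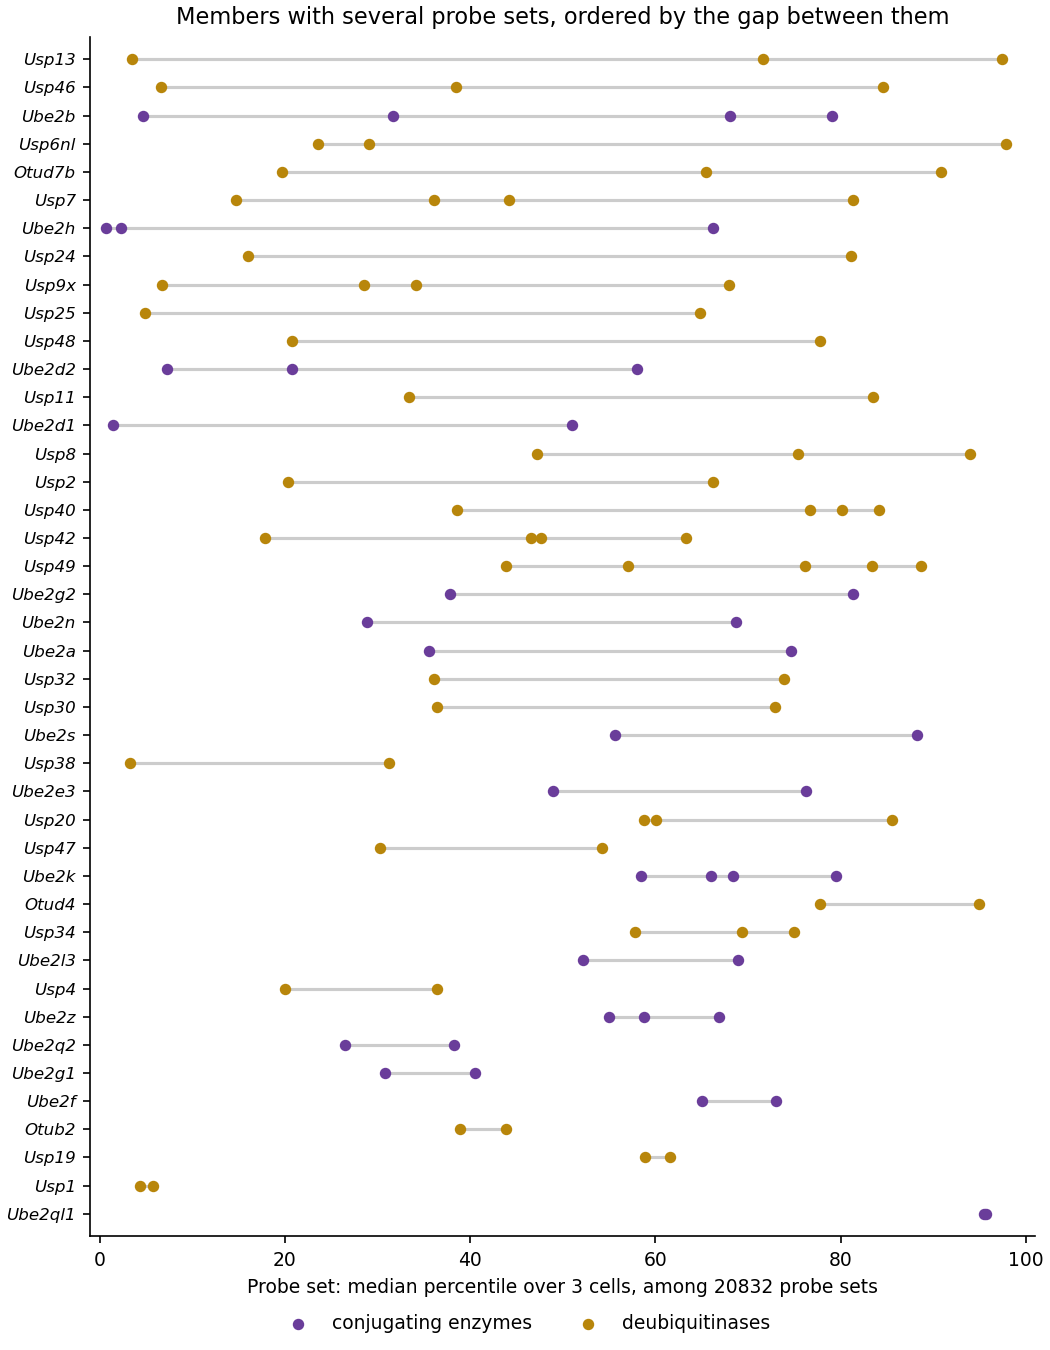
Median percentile over the 3 cells, among 20832 probe sets (x axis), of every probe set of the 42 members with several, conjugating enzymes in purple and deubiquitinases in ochre, joined by a grey line per gene and ordered by its gap. The gaps run up to 93.9 points for Usp13 at the top, and the 2 probe sets of Ube2ql1 at the bottom coincide near percentile 95.

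Other genes of the pathway were described from lists of their own, ordered by the mean over the cells. The 8 measured E1 enzymes of 9 listed had median percentiles of 61.8, 43.9 and 75.5, with 0, 0 and 2 above background. Sae1, a subunit of the SUMO E1, had the highest mean, at 89.7, 93.7 and 96.6, and Uba1, the main ubiquitin E1, the next, at 62.5, 93.2 and 87.7. Uba3 of the Nedd8 E1 and Uba6, the second ubiquitin E1, had the lowest means, at 82.8, 31.7 and 7.48 and at 27.7, 39.9 and 25.1. Of 6 E2s with other names 5 were measured, with medians of 61.1, 61.2 and 82.8, and Cdc34, an E2 of cullin ligases, had the highest mean at 82.7, 88.3 and 94.6. The E2-like Tsg101 of the ESCRT machinery stood at 74.4, 61.2 and 86.7, and Atg3 of autophagy and Aktip had the lowest means, at 23.0, 73.5 and 82.8 and at 36.4, 54.2 and 56.8. DUBs with other names, whatever their family, 16 of 17 measured, had medians of 50.2, 45.0 and 53.4 with 1, 0 and 1 above background. Bap1, a nuclear DUB of histone H2A, had the highest mean at 87.5, 92.8 and 98.9, and Eif3f the next, at 69.8, 89.8 and 65.3. Cops5 of the COP9 signalosome and Stambpl1 had the lowest means, at 1.59, 42.8 and 17.0 and at 22.2, 2.16 and 14.6. Of 44 E3 ligases studied in neurons 38 were measured, with medians of 48.7, 39.0 and 55.2. Above background were 4, 2 and 5 of them, and Trim46 and Fbxo2 passed in all 3 cells. Trim46, known from the axon initial segment, stood above percentile 99.9 in each cell, and Fbxo2, a receptor for glycoproteins in SCF ligases, at 94.8, 94.1 and 96.9. Wwp1 and Trim3 had the lowest means, at 14.0, 19.2 and 11.4 and at 4.97, 6.36 and 27.4. None of the 4 ubiquitin genes had a probe set with 1 symbol, and they were not analysed here.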

How the data were processed

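Expression was measured on 3 Affymetrix arrays, 1 per soma. After 2 rounds of amplification and a final one of 14 h, 5 µg of amplified RNA were labelled per array. The authors deposited 1 log2 value per probe set, and the submitters' processing notes name RMA 2.0. The study's methods describe an upper-decile summary by RMA and state that all arrays were median centred and scaled. The deposited log2 values were not centred on 0, as array medians were 7.23, 7.16 and 7.09, and the summary was not checked. The genome build, detection calls and array dates are not given in the sources used here. Arrays hold no read depth, so precision is limited by the number of arrays.

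The median over probe sets with 1 symbol stood for a gene. All 83 symbols were current in RefSeq (GRCr8). Genes were ranked within arrays, ties at their mean rank, and background was the 95th percentile of 29 chemosensory receptor and 97 organ genes. SDs and correlations used quantile-normalised values. Python 3.11.15, numpy 2.4.6, pandas 2.3.3 and scipy 1.17.1 were used, and the scripts were tested on simulated data.

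The members and gene lists were chosen with earlier results of these data known. Named genes were the 8 highest and 4 lowest of each class by median percentile, the 6 with the largest SD, those above background in all 3 cells, the 6 with the widest probe set gaps, the ends of each list, and Uchl1, Usp14, Usp9x, Usp46, Ube2n, Ube2c, Ube2l6 and Usp18. Others named were chosen after their values were seen. Alternatives were the brightest probe set, every probe set as a member, the mean in place of the median, other background and top limits, a filter on low values, and leaving out a cell, ambiguous probe sets or the members without enzyme activity.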

Additional observations from a re-analysis of the deposited data

How the results depend on the processing

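No paired analysis was possible because the 3 arrays form 1 group, so no replicate block could be fitted, and the difference between E2s and DUBs was taken within each cell. The E2 median percentile, 53.2 as reported, was 58.5 with the brightest probe set per gene, 56.0 with every probe set as a member, 50.3 with means over probe sets, 50.7 without the members that lack enzyme activity and 32.2 among genes whose mean passed background, a filter that left 2 E2s, 2 DUBs and 669 genes. The DUB median, 54.0, was 60.3 with the brightest probe set and 74.6 under that filter. The difference between E2s and DUBs, -0.872, was -3.75 without the members that lack activity, -42.4 under the filter and 0.560 with every probe set as a member. Leaving out 1 cell gave 52.6 to 53.4 for E2s, 52.1 to 55.8 for DUBs and -2.33 to 0.466 for the difference, the last without cell 1.

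Members above background in all 3 cells, 0 E2s and 2 DUBs as reported, were 1 and 5 with chemosensory receptors alone as silent genes and 0 DUBs with the 99th percentile of all silent genes as the limit. With the brightest probe set, 1 E2 passed. Leaving out 1 cell gave 0 to 1 E2s and 2 to 3 DUBs, and the 1 E2 without cell 1 was Ube2ql1. Members above background in at least 1 cell, 12 as reported, were 22 with the receptors alone, 5 at the 99th percentile, 19 with the brightest probe set and 7 to 12 with 1 cell left out, the 7 without cell 3. In the top limit of all 3 cells, 0 E2s as reported became 1 with the top 10%, and 0 to 1 with 1 cell left out (1 without cell 1). The 2 DUBs became 1 with the brightest probe set. Of the 83 members, 21 moved by more than 1 SD between cells with the brightest probe set, and 0 of 82 did without ambiguous probe sets. The 21 include genes with 1 probe set, such as Otud6b (87.4 as reported and 80.8) and Ube2j2 (91.8 and 86.8). Their own readings were unchanged, and their percentiles shifted as other genes took brighter probe sets. Leaving out 1 cell changed the mean percentile by over 1.5 times for 16 members, 9 of them without cell 1, 5 without cell 2 and 2 without cell 3. The largest such changes were Usp1, 18.6 as reported and 2.39 without cell 1, Usp38, 31.0 and 9.94 without cell 1, Usp27x, 12.7 and 4.28 without cell 2, Usp12, 34.3 and 13.7 without cell 1, and Usp28, 12.2 and 5.00 without cell 2. Signal near background limits most members, since 71 of 83 passed it in no cell.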

Other observations

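Another 10 probe sets carried several symbols of which at least 1 belonged to these families, and they entered no value above. They stood between percentiles 7.08 and 98.7 of the genes, with medians of 38.5, 51.0 and 68.7 in cells 1, 2 and 3. Of these, 1, 1 and 2 read above background, and 1 did so in all 3 cells. No gene is named from them.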
